A study of Mus musculus with 8 samples.

Results

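The comparison described here is between the myotube RNAs titled RNA276 and RNA275, chosen by their titles. Each RNA was hybridised to 2 array types, A and B, which gives 4 of the 8 samples of a mouse study of genes regulated by Egr3. The samples are total RNA of murine skeletal muscle myotubes. For RNA275 the labels add acclimatization as the type of treatment. For RNA276 they state no treatment and no genotype. The other 4 samples are a wildtype RNA and a truncated Egr3 RNA, both with growth as the treatment type, which serve only as background. The labels say nothing of the strain, age, culture time or Egr3 genotype of RNA275 and RNA276 or of how they relate, so a difference between them is a difference between 2 RNAs whose conditions are known only this far. With 1 RNA on each side no test was possible, and no value has a replicate error.

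Egr3 is a zinc finger transcription factor of the early growth response family, switched on rapidly by growth factors and nerve activity. In muscle it is known for the intrafusal fibres of the muscle spindle, the stretch receptor that needs contact with sensory axons. It binds GC-rich sites, and the corepressors Nab1 and Nab2 bind Egr proteins and limit their activity. Interferons act through a separate route: receptor-bound kinases activate Stat2, which enters the nucleus with Irf9 and switches on antiviral genes.

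Values are the deposited signals, one intensity for each probe set (a group of short probes that read 1 transcript). All arrays had been scaled alike, with a trimmed mean of 150. A gene was read by its brightest probe set over the RNAs, on type A where it had one there. Signals were raised to a floor, 61.9 on type A and 110.7 on type B, before log2 was taken, and genes with RNA275 or RNA276 above it are called measured. Differences are given as log2 of RNA276 minus log2 of RNA275, on which 1 unit is 2-fold. For a dimmer RNA at or below the floor the fold can only be bounded, and is written as "at least". Below, a number in parentheses without the word fold is a log2 difference, and a pair such as 10 against 5 gives the signal in RNA276 first. For scale, 100 probe sets present on both array types, mostly bright ones, gave differences that scattered between the types with an SD of 0.212. Over 3767 pairs of different probe sets for the same gene, both RNAs above the floor, the differences scattered with an SD of 0.474, and 159 pairs lay more than 1 unit apart. Neither value covers differences between cultures.

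Markers bore out the label of the tissue. All 10 myotube markers lay above the floor in both RNAs, among them creatine kinase M (Ckm, 1040.3 against 1099.6) and skeletal actin (Acta1, 3998 against 3554). Of 6 fibroblast markers, 4 lay above the floor in both, the collagens Col1a1 and Col3a1 brightly, while Lum and Pdgfra did not. Of 5 smooth muscle and pericyte markers, 2 did, Acta2 (3576 against 2890) and Tagln (1220 against 1633). Of 3 myoblast markers, 2 lay above the floor in RNA276 and 1 in RNA275. Cdh15 read 617 against 500, Pax7 was near the floor (63.7 against 58.4) and Myf5 was below it (39.1 against 26.4). Of 13 macrophage markers, 3 lay above the floor in RNA276 and 2 in RNA275. Of 3 Schwann cell markers, 1 lay above the floor in both, Sox10 at 85.2 against 118. None of 5 endothelial, 4 T cell, 2 B cell or 2 adipocyte markers did so in either RNA. Outside these markers, Flt1 of the endothelial gene list (63.5 against 105) and Lpl of the adipocyte list (94.5 against 310) lay above the floor in both. The ratio of 3′ to 5′ signal, a sign of RNA quality, lay between 1.11 and 1.14 for actin and between 0.777 and 0.832 for Gapdh over these 4 arrays.

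Of 10887 measured genes, 265 were at least 2-fold higher in RNA276 (2.43%) and 569 at least 2-fold lower (5.23%). The difference was at least 4-fold for 33 genes above and 53 below. Lower calls made up 68.2% of all calls on the deposited scale, and between 63.3% and 69.6% under 3 other scalings. The median difference over all measured genes was 0.03. Genes lie on either side of the 2-fold line without a gap: Gpr183 was just inside at 1.00087 and Clic4 just outside at 0.999549. Every scaling and a higher floor left 191 genes at least 2-fold above and 330 below. Other measured probe sets existed for 99 of the higher genes. Their median pointed the same way for 95 of them, but was itself at least 2-fold for only 41. They existed for 248 of the lower genes, where their median pointed the same way for 222 and was at least 2-fold for 65.

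**Figure D1:**
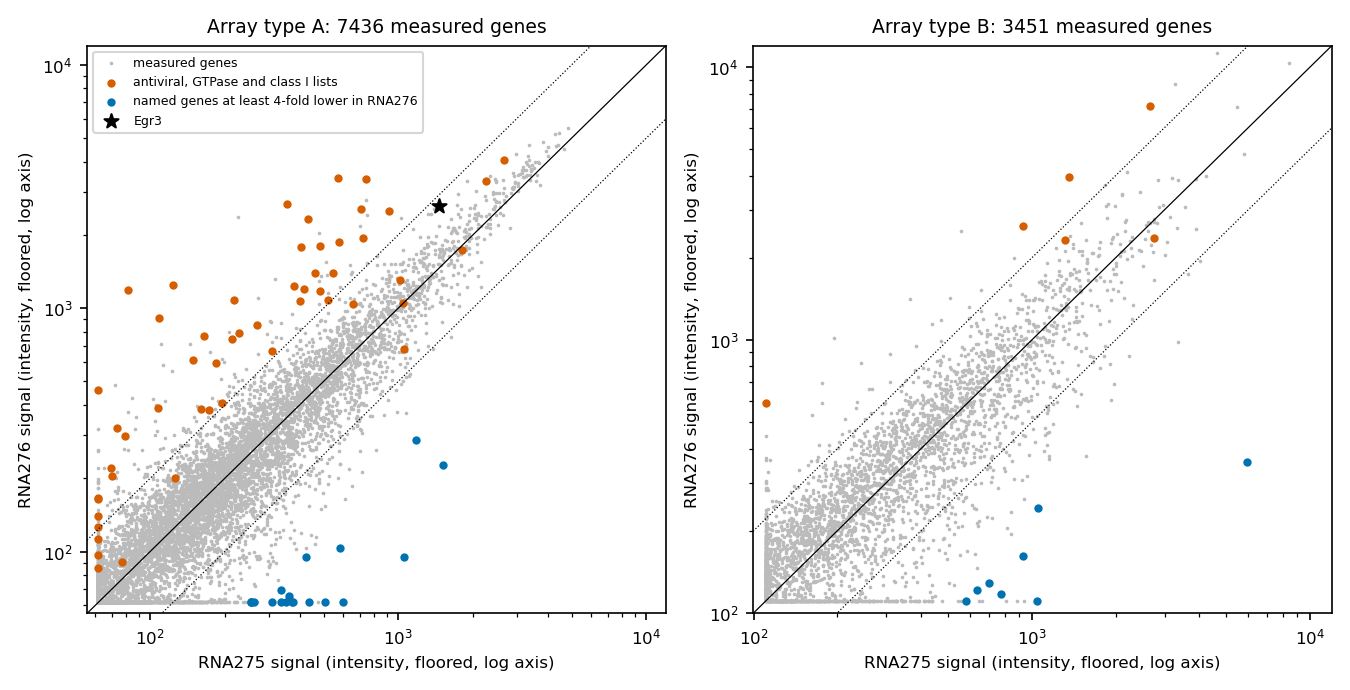
Signal of each measured gene in RNA276 (vertical, floored intensity, log axis) against RNA275 (horizontal), for array type A (7436 genes) and type B (3451 genes); the solid line marks equal signal and the dotted lines 2-fold. Members of the antiviral, GTPase and class I lists lie mostly above the upper dotted line, the named genes at least 4-fold lower in RNA276 lie under the lower one, and Egr3 is drawn by its type A probe set.

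Antiviral genes had the largest differences above RNA275. Of 31 measured members of the antiviral effector list, 23 passed 2-fold upward (74.2%, against 2.43% of all measured genes) and 0 downward. The median was 1.49, against 0.03 for all genes. The median stayed between 1.42 and 1.60 under the other settings. In RNA of whole cultures, a gene used by more cells and more of its RNA per cell cannot be told apart. Ifit2, which binds viral RNA and blocks its translation, read 1189.9 in RNA276 and 81.0 in RNA275, a difference of 14.7-fold. The signal was 91.7 in wildtype and 6.05 in truncated Egr3 myotubes. RNA276 alone was bright for this gene, and the other RNAs lay near or under the floor. Oasl1, an oligoadenylate synthetase relative that restrains Irf7 translation, read 1249 in RNA276 and 124 in RNA275 (10.1-fold). Cmpk2, a nucleotide kinase transcribed beside Rsad2, read 915 in RNA276 and 108 in RNA275 (8.45-fold). Rsad2, or viperin, which makes a chain-terminating nucleotide, read 3413 in RNA276 and 571 in RNA275 (5.98-fold), with larger log2 differences of 3.69 and 3.65 on its other probe sets. So the size of the Rsad2 difference depended on the probe set, and its direction did not.

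The nucleotide hydrolase Samhd1 read 772 in RNA276 and 164 in RNA275, a log2 difference of 2.23, and Ifit3, a partner of the other Ifit proteins, read 3381 in RNA276 and 738 in RNA275 (2.20). The exonuclease Isg20 read 582 in RNA276 and 113 in RNA275 (5.15-fold). Bst2 or tetherin, which holds budding virus at the membrane, read 1233 in RNA276 and 381 in RNA275 (1.69). Xaf1, a proapoptotic interferon target, read 7206 in RNA276 and 2663 in RNA275 (1.44). Under 2-fold were Ifitm3 (0.61) and Ifitm2 (0.36), both membrane proteins that block virus entry and both bright in RNA275 already. Ifi27 was the single measured member with a lower signal in RNA276, at 2362 against 2761 and a log2 difference of -0.23. Summed over the list, the signal was 48067 in RNA276 and 19059 in RNA275.

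Every measured member of the list of interferon-induced GTPases, 11 of 11, was at least 2-fold higher in RNA276, against 2.43% of all measured genes. The median was 1.70, with a range of 1.52 to 2.04 for that median over the other settings. GTPases of this kind act in the defence of cells against intracellular pathogens. Gbp2 read 2684 in RNA276 and 356 in RNA275 (7.53-fold), against 396 in wildtype and 48.8 in truncated Egr3 myotubes. Mx1, which traps viral nucleocapsids, read 460.0 in RNA276 and 56.7 in RNA275, at least 7.43-fold higher because RNA275 was under the floor. Igtp (2315 against 434, 5.33-fold), Irgm2 (1084 against 217) and Ifi47 (1787 against 407) followed. Gbp7 was the closest to the threshold, at 407 against 194 and 1.06. Some of these genes are close copies of one another, and probe sets may share signal among them. The summed signal was 12836 in RNA276 and 3150 in RNA275.

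Genes of class I antigen presentation show peptides of the cell's own proteins to T cells. At least 2-fold higher were 11 of 17 measured members (64.7%, against 2.43% of all measured genes). At least 2-fold lower were 0, and the median was 1.42. Nlrc5, the transactivator of class I genes, read 590.1 in RNA276 and 74.4 in RNA275 (at least 5.33-fold higher, RNA275 under the floor). The immunoproteasome subunit Psmb9 read 321 in RNA276 and 73.3 in RNA275 (2.13), and the peptide transporter Tap1 read 610.0 in RNA276 and 149 in RNA275 (2.03). The heavy chain genes H2-D1 (2543 against 706, 1.85) and H2-K1 (2509 against 915, 1.45) were higher as well. Near-identical class I genes may share probe sets, so their separate values are uncertain. The light chain B2m, at 3314 against 2265, was under 2-fold (0.55). The general chaperones of the endoplasmic reticulum in the same list did not share the direction, with Pdia3 at 0.00, Calr at -0.07 and Canx at -0.64. The 1 measured class II gene, Cd74, was under 2-fold.

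**Figure D2:**
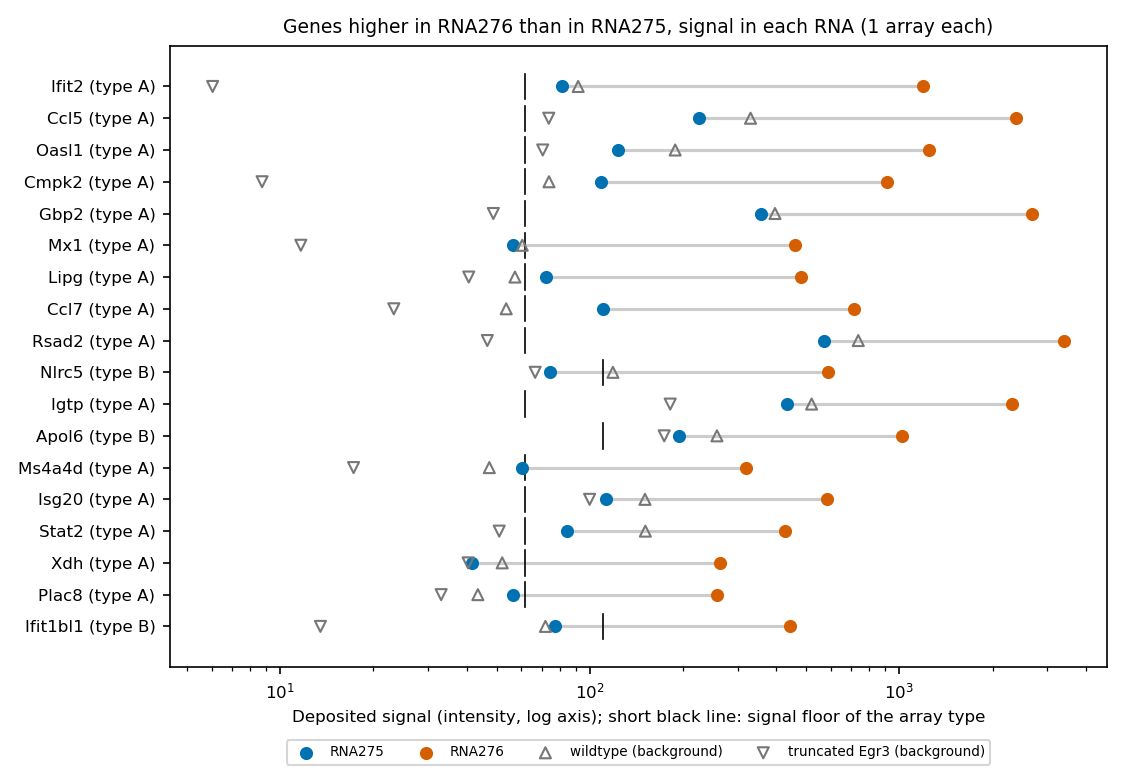
Deposited signal (intensity, log axis) of the 18 named genes with the largest differences above RNA275, 1 point for each RNA, with the signal floor as a short black line. RNA276 is the rightmost point for every gene plotted, and for most of them RNA275 and the wildtype RNA lie close together.

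Promoters of the higher genes are shown because many hold letters of the interferon-stimulated response element, the sequence bound by Irf9 with Stat2. The letters searched were GAAANNGAA on both strands, in windows from 250 bases before to 50 after each start site, taken from RefSeq (GRCm38.p6). They occurred in 8.56% of all 32851 windows. Of measured genes with a promoter in the table, 741 of 8816 (8.41%) held them, against 50 of 204 (24.5%) among genes at least 2-fold higher and 33 of 449 (7.35%) among genes at least 2-fold lower. Among genes at least 4-fold higher the share was 10 of 25, in the antiviral list 12 of 27, in the GTPase list 6 of 7 and in the class I list 3 of 14. The median GC content of the windows was 60.8% for all measured genes and 55.5% for the higher ones, and its part in these shares was not tested. Of the 18 named higher genes, 11 had a promoter and 5 held the letters. A match is a description of the letters and not evidence of binding. The stretches below run along the gene's own strand, with the matched letters in capitals (a match on the opposite strand appears as its reverse complement). They lie at chr3:142620555-142620662 (Gbp2, plus strand), chr12:26456513-26456621 (Rsad2, minus), chr11:58199472-58199555 (Igtp, plus), chr10:128270248-128270335 (Stat2, plus) and chr19:34602013-34602121 (Ifit1bl1, minus).
Gbp2: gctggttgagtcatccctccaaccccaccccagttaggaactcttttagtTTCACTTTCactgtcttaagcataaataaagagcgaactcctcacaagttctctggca
Rsad2: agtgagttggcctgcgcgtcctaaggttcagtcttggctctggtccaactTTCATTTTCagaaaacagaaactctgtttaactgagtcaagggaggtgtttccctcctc
Igtp: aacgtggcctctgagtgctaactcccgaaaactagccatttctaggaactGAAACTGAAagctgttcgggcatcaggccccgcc
Stat2: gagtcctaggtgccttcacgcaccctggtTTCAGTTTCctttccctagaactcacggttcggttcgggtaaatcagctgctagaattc
Ifit1bl1: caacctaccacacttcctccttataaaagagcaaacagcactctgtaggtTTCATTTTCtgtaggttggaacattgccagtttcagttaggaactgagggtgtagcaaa
The match lies 25 bases before the start site in Igtp, 49 in Gbp2, 94 in Ifit1bl1, 110 in Rsad2 and 212 in Stat2.

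The interferons themselves were not among the higher genes. Of 13 interferon and receptor genes on the arrays, 6 were measured, all receptor chains, and 0 of them passed 2-fold. The receptor chains of type I interferon, Ifnar1 (85.3 against 91.8) and Ifnar2 (128 against 122), were dim and near equal in both RNAs. The other 7, Ifnb1 among them, were at or below the floor in both. The median of the measured members, 0.28, changed sign between settings.

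Downstream of the receptors, 2 of 13 measured Irf and Stat factors and kinases passed 2-fold upward (15.4%, against 2.43% of all measured genes). None passed it downward, and the median was 0.34. Stat2 read 427 in RNA276 and 84.3 in RNA275 (5.06-fold). Irf7, which amplifies the interferon response, read 1547 in RNA276 and 512 in RNA275 (1.59). Irf9 was at 0.99, Irf1 at 0.86 and the kinase Jak1 at 0.28, all under 2-fold.

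Sensors of foreign nucleic acid were past 2-fold upward in 7 of 16 measured members (43.8%, against 2.43% of all measured genes). None was past it downward, and the median was 0.94. The RNA helicase Ddx58 (RIG-I) was bright in both, at 3707 in RNA276 and 1831 in RNA275 (1.02). Ifih1 (MDA5) read 823 in RNA276 and 402 in RNA275 (1.03) and Dhx58, of the same helicase family, 314 in RNA276 and 106 in RNA275 (1.56). The endosomal receptor Tlr3 read 213 in RNA276 and 73.7 in RNA275 (1.53), and Myd88, the adaptor of most other Toll-like receptors, 344 in RNA276 and 105 in RNA275 (1.71). The adaptors Mavs (-0.52) and Ticam1 (0.14) were under 2-fold.

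In a mixed list of regulators of interferon signalling and Isg15 enzymes, 5 of 12 measured members passed 2-fold upward and 0 downward, with a median of 0.51. The upward share was 41.7%, against 2.43% of all measured genes. Usp18, which strips Isg15 from proteins and blocks the receptor, read 2181 in RNA276 and 702 in RNA275 (1.64), and the ubiquitin ligase Trim21 read 599 in RNA276 and 198 in RNA275 (1.60). Parp14 (2.82-fold), the Isg15 ligase Herc6 (1.21) and Uba7 (1.06), the Isg15 activating enzyme, were the others. Another Uba7 probe set, however, read 67.2 in RNA276 and 165 in RNA275, the opposite direction, and with the median over probe sets Uba7 was under 2-fold. The phosphatases Ptpn1 (-0.41), Ptpn2 (-0.14) and Ptpn6 (-0.60) and the Stat inhibitor Socs3 (-0.28) were under 2-fold, with lower signals in RNA276.

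Counted over these lists together, from sensors to class I genes and without the interferons and their receptors, 59 of the 100 measured genes passed 2-fold upward and 0 downward. The shares over all measured genes were 2.43% and 5.23%. They make up 59 of the 265 higher genes.

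Among chemokines and NF-kB targets, 7 of 19 measured members passed 2-fold upward (36.8%) and 2 downward (10.5%), with a median of 0.34. The shares over all measured genes were 2.43% and 5.23%. Ccl5, which draws T cells and monocytes, read 2373 in RNA276 and 226 in RNA275 (10.5-fold), against 330.5 in wildtype and 73.7 in truncated Egr3 myotubes. Ccl7, a monocyte chemokine, read 712 in RNA276 and 110.4 in RNA275 (6.45-fold), and its neighbour Ccl2 read 2409 in RNA276 and 751 in RNA275 (1.68). The Cxcr3 ligands Cxcl10 (2773 against 739.7, 1.91) and Cxcl9 (1.87) were also higher. The adhesion molecule Vcam1 read 397 against 155 (1.36). Both lower members were chemokines as well: Cx3cl1 or fractalkine read 73.6 in RNA276 and 263 in RNA275 (-1.84), and Ccl20 read 5.12 in RNA276 and 159.8 in RNA275, at least 2.58-fold lower. The NF-kB subunit Nfkb2 was at -0.54 and the NF-kB inhibitor Nfkbia at 0.30, both under 2-fold. Of the macrophage markers, Mpeg1 read 133 in RNA276 and 9.14 in RNA275, Csf1r 116 against 89.9 and Laptm5 82.0 against 74.4. The other 10, Cd68, Adgre1, Ptprc and Itgam among them, were at or below the floor in both RNAs. Summed over all 13 markers the signal was 609 in RNA276 and 452 in RNA275. The part of such cells in the chemokine and interferon differences was not tested.

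Genes of programmed cell death were at least 2-fold higher in 5 of 17 measured members (29.4%, against 2.43% of all measured genes). None was at least 2-fold lower, and the median was 0.42. Mlkl, the pore former of necroptosis, read 1410.4 in RNA276 and 366 in RNA275 (1.95), and Gsdmd, the pore former of pyroptosis, 889 in RNA276 and 310.5 in RNA275 (1.52). Bid, which links death receptors to mitochondria, read 263 in RNA276 and 78.4 in RNA275 (1.75). Casp8 (1.04) and Casp4 (at least 1.13) completed the 5, Casp4 under 2-fold with the higher floor. Ripk3, the kinase that activates Mlkl, was near the floor and near equal in both RNAs at 63.5 against 67.0. None of 15 measured p53 targets passed 2-fold in either direction.

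Outside the interferon lists, Lipg, endothelial lipase, read 483 in RNA276 and 71.9 in RNA275 (6.71-fold), and Apol6, of the apolipoprotein L family, 1017 in RNA276 and 195 in RNA275 (5.23-fold). Xdh, xanthine dehydrogenase, read 262 against 41.7 and was at least 4.24-fold higher. Plac8 (at least 4.18-fold) and Ms4a4d (at least 5.17-fold) were likewise under the floor in RNA275.

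On the lower side, the largest difference between floored signals was that of Sbsn. This gene of suprabasin, a secreted protein of stratified epithelium, read 357 in RNA276 and 5962 in RNA275 (16.7-fold), against 1318 in wildtype and 387 in truncated Egr3 myotubes. Its other probe sets were lower too, by 5.06 and by at least 1.24 on the log2 scale. Cnfn, cornifelin, another gene of cornified epithelium, read 117 in RNA276 and 778 in RNA275, and Dmkn, dermokine, read 18.1 in RNA276 and 261 in RNA275 (at least 4.23-fold lower). Crabp2, which carries retinoic acid to its nuclear receptor, read 95.0 in RNA276 and 1052 in RNA275 (11.1-fold). Here RNA276 was the lowest of the RNAs, since the signal was 607 in wildtype and 319 in truncated Egr3 myotubes.

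Inha, the alpha subunit of inhibin, read 226 in RNA276 and 1513 in RNA275 (6.69-fold). Vgf, a neuropeptide precursor induced by neurotrophins, read 29.6 in RNA276 and 1047 in RNA275 (at least 9.46-fold lower), against 446 in wildtype and 15.8 in truncated Egr3 myotubes. Slc17a7, the vesicular glutamate transporter, read 121 against 636 (-2.40). Gpr162 read 103 against 584 (-2.50) and Hid1, needed for dense core granules, 65.6 against 364 (-2.47). Pnmt, which makes adrenaline, read 94.5 against 423 (-2.16). Of enzymes, Cdo1, cysteine dioxygenase, read 36.6 in RNA276 and 598 in RNA275 (at least 9.66-fold lower), and Car2, a carbonic anhydrase, 52.9 in RNA276 and 507 in RNA275 (at least 8.19-fold lower). One named gene is uncertain: 1810013L24Rik read 243 against 1053, but 2 other probe sets of it lay at -0.01 and -0.22, and with the median over probe sets it was under 2-fold.

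**Figure D3:**
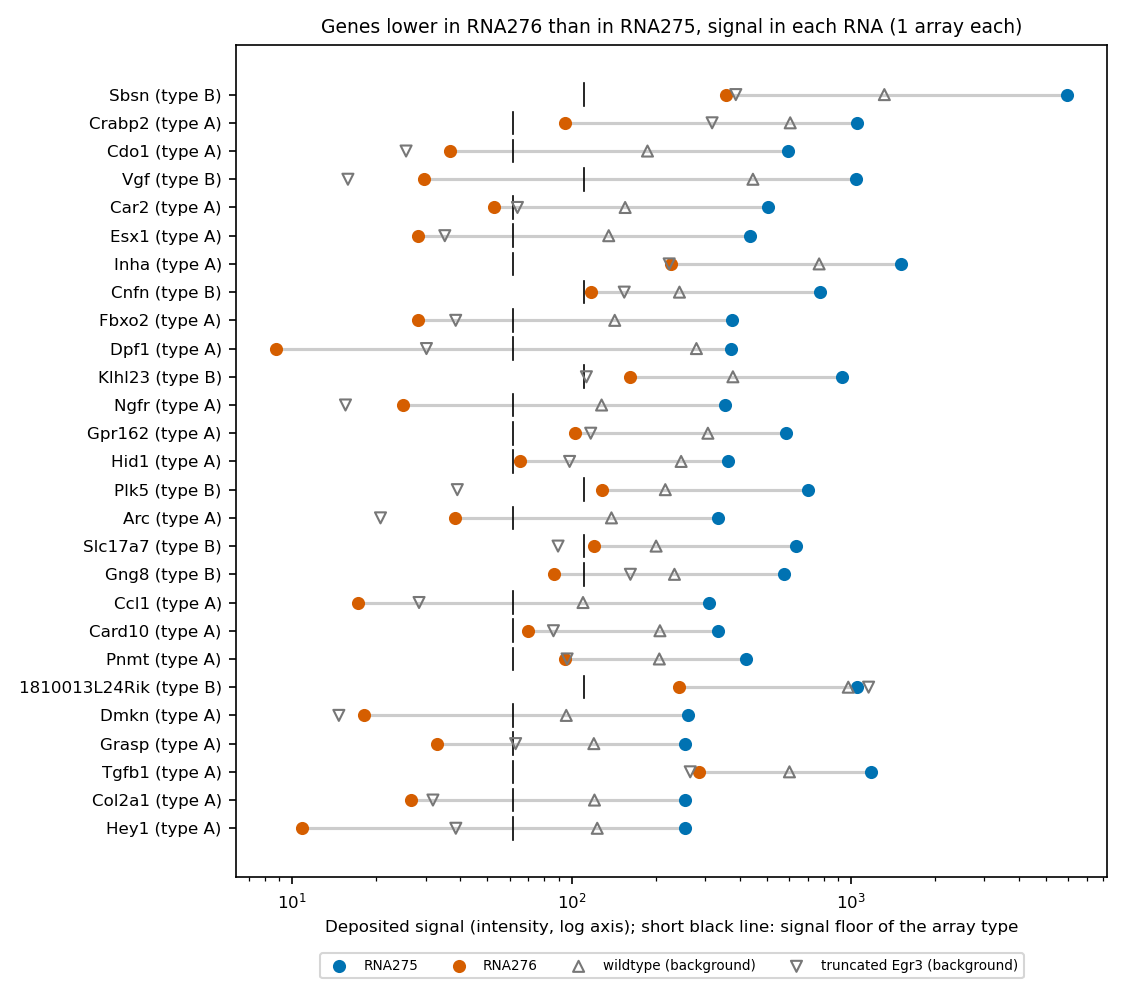
Deposited signal (intensity, log axis) of 27 named genes lower in RNA276, 1 point for each RNA, with the signal floor as a short black line. RNA275 is the rightmost point for every gene but 1810013L24Rik, the wildtype RNA lies between RNA275 and RNA276 for every gene plotted, and the truncated Egr3 RNA lies below the wildtype RNA for every gene but 1810013L24Rik.

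Genes of the muscle spindle and of neurotrophic signalling had the lowest median of any list with 5 or more measured members, -0.68, with a range of -0.72 to -0.52 over the other settings. The lists were chosen with earlier results of these data known, so this rank is a description only. Of 14 measured members, 5 were at least 2-fold lower (35.7%, against 5.23% of all measured genes) and 0 higher. Ngfr, the low-affinity neurotrophin receptor p75, read 24.9 in RNA276 and 353 in RNA275 (at least 5.71-fold lower), against 128 in wildtype and 15.5 in truncated Egr3 myotubes. Nrtn, neurturin, a ligand of the GDNF family, read 56.0 in RNA276 and 157 in RNA275 (at least 1.34 lower on the log2 scale). Etv4, an ETS factor made by sensory and motor neurons in response to target-derived signals, read 74.2 against 174 (-1.23). Myh7b, a slow tonic myosin found in spindle fibres, read 201 against 406 (-1.01). Erbb3, the receptor of the neuregulin that induces spindles, was under 2-fold at 398 against 740.5 (-0.90). Gfra1, the GDNF receptor, had the opposite sign (180.1 against 91.9, 0.97), and was also under 2-fold. Nrtn and Etv4 were under 2-fold with the higher floor, and Etv4 also with the median over probe sets, while Vgf, Ngfr and Myh7b passed it in every setting. Of the Schwann cell list, 2 of 4 genes were measured, Sox10 (-0.46) and Cnp (-0.86), with a median of -0.66, and Mbp and S100b were at or below the floor. Over Sox10, Mbp and S100b the summed signal was 127 in RNA276 and 153 in RNA275, and the part of such cells in the neurotrophic differences was not tested.

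Of 25 measured genes reported as Egr targets in one cell type or another, 5 were at least 2-fold lower and 1 higher, while the median was -0.01 and changed sign between settings. The shares over all measured genes were 5.23% lower and 2.43% higher, so 1 higher member of 25 is close to the share of all genes. Beside Ngfr and Nab1, the lower ones were Arc, Tgfb1 and Gabra4. Arc, a synaptic capsid-like protein, read 38.4 in RNA276 and 335 in RNA275 (at least 5.42-fold lower), and Gabra4, a GABA receptor subunit, 21.2 in RNA276 and 278 in RNA275 (at least 2.51-fold lower). Tgfb1 read 286 in RNA276 and 1182 in RNA275 on type A (4.13-fold), against 603 in wildtype and 266 in truncated Egr3 myotubes. A type B probe set named for Tgfb1 had the opposite sign, 320 in RNA276 and 193 in RNA275, so its direction rests on the brighter probe set, and with the median over probe sets it was under 2-fold. The 1 higher member was F3, tissue factor, at 141 against 33.7 (at least 2.28-fold). Pdgfb, a growth factor chain, was at -0.97, just under 2-fold, and the cyclin Ccnd1, at 0.60, had the opposite sign. Gabra4 and F3 were under 2-fold with the higher floor, and Gabra4 also with the median over probe sets.

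The Egr and Nab genes showed no common direction. Egr3 itself read 2627 in RNA276 and 1454 in RNA275 on its type A probe set, a log2 difference of 0.85. Its type B probe set, however, read 771 in RNA276 and 1203 in RNA275 (-0.64). The probe sets disagreed in sign, so the direction of Egr3 between these RNAs was not settled. The part of the transcript each reads is not given in the files, so neither checks a truncation. Egr1 read 1029.6 in RNA276 and 652 in RNA275 (0.66). Egr2, at 40.4 against 122, was dim, and its difference of at least 0.98 on the log2 scale passed 2-fold only with a lower floor or none. Egr4 and the related Wt1 were at or below the floor in both RNAs. Nab1 read 215 in RNA276 and 446 in RNA275 (-1.05), with a second probe set at -0.45. It was under 2-fold with equal medians and with the median over probe sets. Nab2 read 358 against 466 (-0.38).

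**Figure D4:**
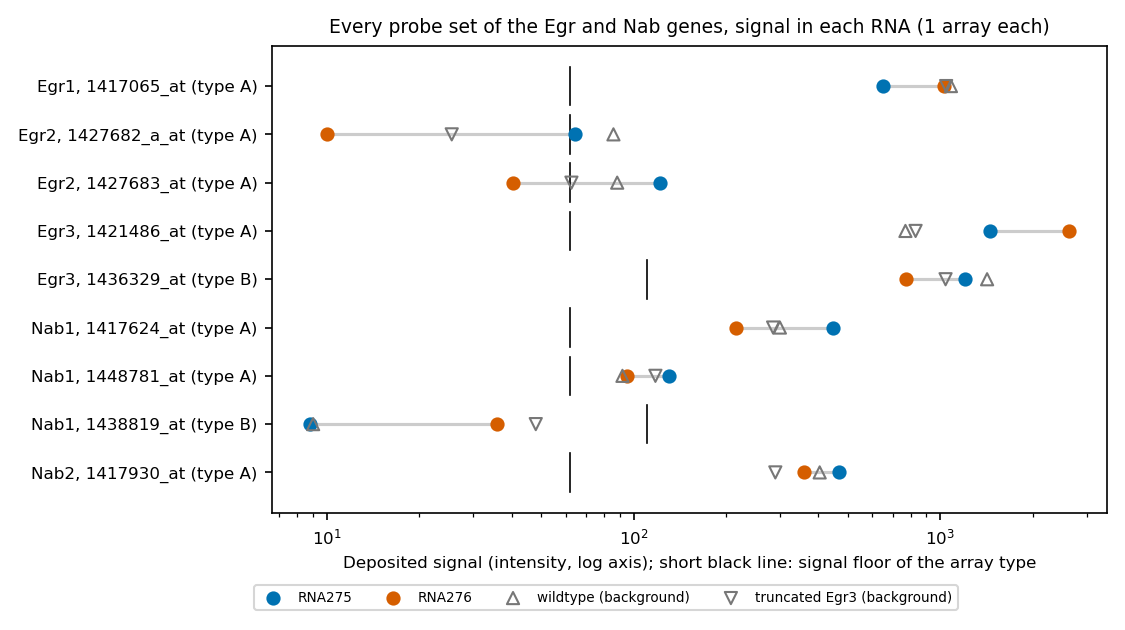
Deposited signal (intensity, log axis) of every probe set of Egr1, Egr2, Egr3, Nab1 and Nab2, 1 point for each RNA, with the signal floor as a short black line. The type A probe set of Egr3 is brightest in RNA276 and its type B probe set is dimmest there.

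The letters of the Egr site were searched in 35 named genes. These were the genes named for the smallest differences or for bounds of at least 4-fold lower. The Egr and Nab list and the named members of the reported Egr targets were added. The set is therefore not made of lower genes only, since Egr1 and F3, for example, had higher signals in RNA276. Of the 35 genes, 23 had a promoter in the table, and the letters are shown for the 2 that hold them. On either strand, GCGTGGGCG occurred in 0.61% of all windows and GCGGGGGCG in 2.91%. Counted over measured genes, GCGTGGGCG occurred in 1.38% of those with a promoter, in 8 of 449 lower genes (1.78%) and in 2 of 204 higher genes (0.98%). GCGGGGGCG occurred in 561 genes (6.36%), in 39 lower genes (8.69%) and in 8 higher genes (3.92%). The windows of the lower genes were richer in GC, with a median of 63.0%, and the part of GC content in these shares was not tested. Along the gene's strand, with the match in capitals, Nab1 lies at chr1:52500449-52500536 (minus strand) and Tgfb1 at chr7:25686830-25686938 (plus), the latter with the motif on the opposite strand.
Nab1: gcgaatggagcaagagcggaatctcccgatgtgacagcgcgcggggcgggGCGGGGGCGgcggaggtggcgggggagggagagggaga
Tgfb1: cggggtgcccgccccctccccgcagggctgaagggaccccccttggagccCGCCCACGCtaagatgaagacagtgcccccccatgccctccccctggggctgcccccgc

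Immediate early genes answer signals within minutes to hours. At least 2-fold lower were 5 of 31 measured members (16.1%, against 5.23% of all measured genes). At least 2-fold higher was 1 (3.23%, against 2.43%), and the median was -0.02. Lower were the ERK phosphatases Dusp5 (55.8 against 383, at least 3.46-fold) and Dusp6 (211 against 479, -1.18), Atf3 (-1.25), Klf10 (-1.15) and the orphan receptor Nr4a1 (-1.14). Dusp5 was high in RNA275 alone, since it read 47.7 in wildtype and 51.1 in truncated Egr3 myotubes. Jund was the higher member, at 1526 against 745 (1.04). Fos (0.45) and Dusp1 (0.47) were under 2-fold.

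In TGF-beta, BMP and activin signalling 3 of 23 measured members were at least 2-fold lower (13.0%) and 1 higher (4.35%), with a median of -0.26. The shares over all measured genes were 5.23% and 2.43%. Inha and Tgfb1, given above, and the ligand Bmp6 (32.1 against 144, at least 2.33-fold) were lower, Bmp6 under 2-fold with the higher floor. Ltbp1, which stores latent TGF-beta in the matrix, was higher at 302 against 125 (1.28). The activin antagonist Fst was at -0.81 and the activin subunit Inhba at -0.81, both under 2-fold. Of 18 Wnt and Notch genes, 2 were at least 2-fold lower (11.1%) and 0 higher. Hey1, a Notch target and repressor, read 10.8 in RNA276 and 254 in RNA275 (at least 4.11-fold lower), and Axin2, a Wnt target, 114 against 259 (-1.19). Igfbp6, which binds Igf2, was lower at 151 against 349 (-1.21).

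Over all measured genes, 10053 of 10887 were under 2-fold, and most muscle genes were too. Of 16 measured myogenic regulators, 1 was at least 2-fold higher (6.25%) and 2 lower (12.5%), against 2.43% and 5.23% of all measured genes. Myf6 (Mrf4), a late myogenic factor, read 220.3 in RNA276 and 65.0 in RNA275 (1.76), against 73.7 in wildtype and 229 in truncated Egr3 myotubes, so RNA275 and the wildtype RNA were low. Hey1, given above, and Id2 (62.0 against 145, -1.23), which keeps myogenic factors from DNA, were lower. Id2 was under 2-fold with the higher floor and with the median over probe sets. Myog (2154 against 1585, 0.44), Myod1 (1247 against 805, 0.63) and Mef2c (1049 against 1502, -0.52) were under 2-fold.

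Of 45 measured sarcomere genes, 2 were at least 2-fold higher (4.44%), 3 lower (6.67%) and the rest under 2-fold. The shares over all measured genes were 2.43% and 5.23%. The sarcomere median of 0.11 changed sign between settings. Csrp3, a Z-disc protein, read 829 in RNA276 and 386 in RNA275 (1.10), and Lmod2, which nucleates thin filaments, 232 in RNA276 and 108 in RNA275 (1.10). Nebulin (Neb), the ruler of the thin filament, read 377 in RNA276 and 1568 in RNA275 (4.16-fold), against 3305 in wildtype and 2752 in truncated Egr3 myotubes. Titin (Ttn) lay just under 2-fold at 354 in RNA276 and 704 in RNA275 (-0.99), and read 1850.5 in wildtype and 1627 in truncated Egr3 myotubes. Both giant genes were lowest in RNA276 of all the RNAs. Mybpc2 (-1.04) and Myl2 (at least 2.44-fold, under the floor in RNA276) were the other lower members, both under 2-fold with the higher floor. None of 15 genes of fusion and membrane or 19 of the triad passed 2-fold. Of 15 postsynaptic genes, 1 was at least 2-fold lower (6.67%), the axon repellent Sema3a (62.4 against 138, -1.14). Sema3a was under 2-fold with the higher floor and with the median over probe sets.

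For DNA replication and mitosis genes the median over 36 measured members was 0.41, between 0.31 and 0.52 over the other settings. At least 2-fold higher were 4 (11.1%, against 2.43% of all measured genes), and 1 was lower (2.78%, against 5.23%). The replicative helicase subunits Mcm6 (729 against 311, 1.23) and Mcm5 (314 against 139, 1.18), thymidine kinase Tk1 (1.17) and E2f1 (at least 2.21-fold) were the higher ones. The proliferation marker Mki67 went the other way, at 49.5 against 158 (at least 2.55-fold lower). Under 2-fold were E2f1 and Mki67 with the higher floor, and E2f1 and Mcm5 with medians over probe sets. In extracellular matrix, 1 of 36 was higher (2.78%) and 2 lower (5.56%), shares close to those of all measured genes (2.43% and 5.23%). Thbs1, thrombospondin, read 1374 against 517 (1.41), Postn, periostin, 461 against 977 (-1.08), and Col15a1 42.5 against 136 (at least 2.20-fold lower). Postn was under 2-fold with equal medians and Col15a1 with the higher floor. Among 25 unfolded protein and amino acid stress genes, 1 was higher (4.0%) and 1 lower (4.0%), close to the shares of all measured genes. The higher one was Nupr1, at 425 in RNA276 and 103 in RNA275 (2.05), and the lower one Atf3. Metallothionein Mt1 was lower at 373 against 984 (-1.40). Lipoprotein lipase (Lpl) was lower at 94.5 against 310.3 (-1.71). Of 31 hypoxia and glycolysis genes, Ndrg1 alone passed 2-fold, at 358 against 170.3 (1.07), a share of 3.23% close to the 2.43% of all measured genes. None of 46 genes of the respiratory chain, 28 ribosomal protein genes, 16 muscle atrophy genes or 10 housekeeping genes did. Any of the 42 lists held 86 of the 265 higher genes and 35 of the 569 lower ones, so most genes of either direction lie outside them. The share of all measured genes that the lists hold is not given here.

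**Figure D5:**
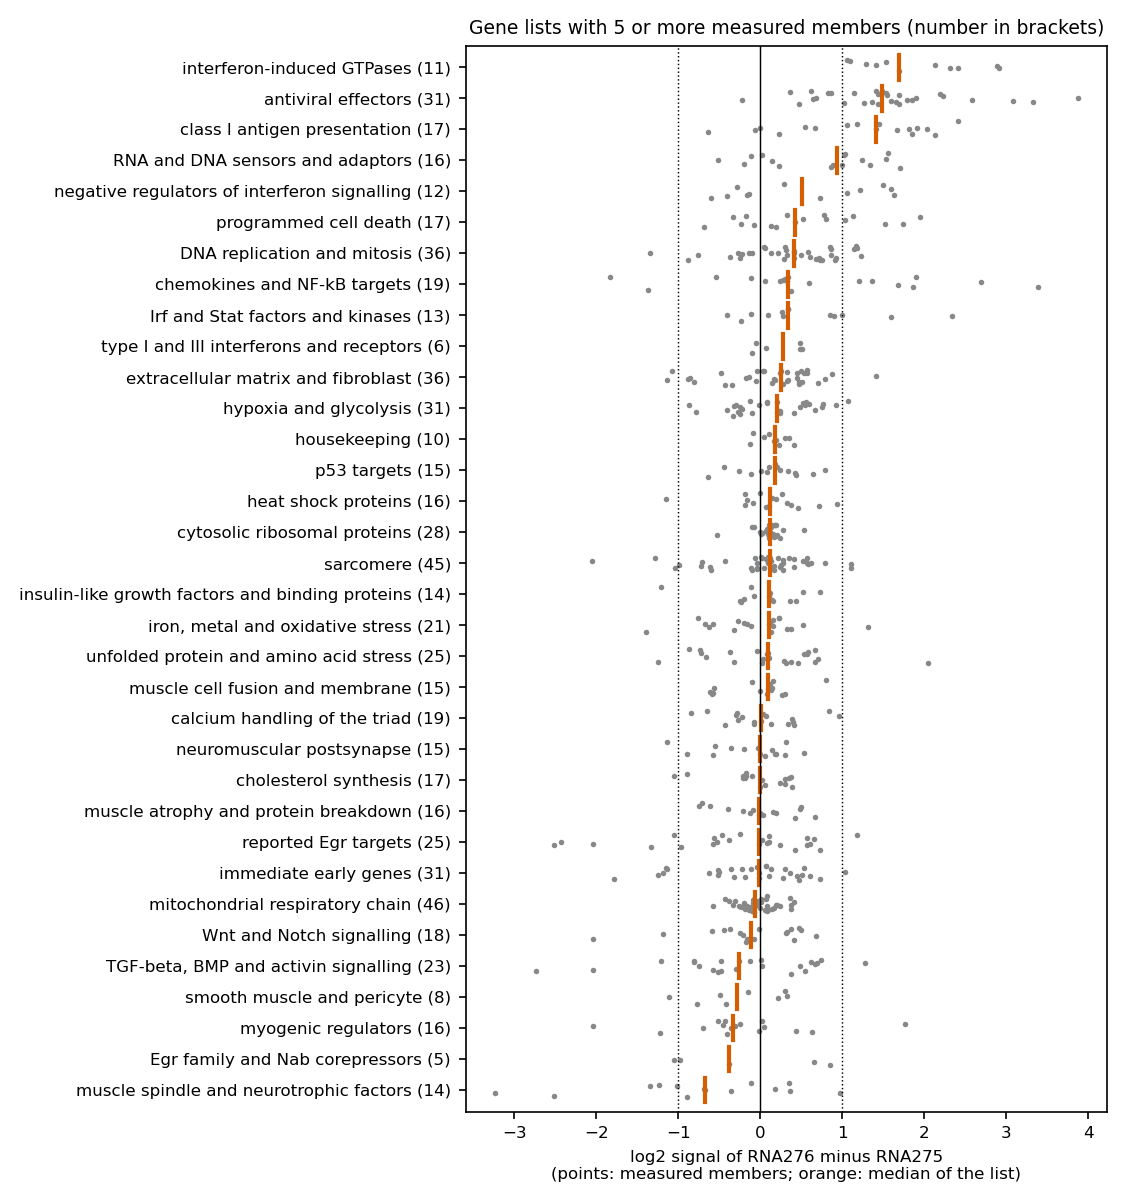
Difference in log2 signal, RNA276 minus RNA275, for each measured member (points) of the gene lists with 5 or more measured members, with the list median as an orange line and dotted lines at 2-fold. The GTPase, antiviral and class I medians lie beyond 1 and the neurotrophic median, -0.68, is the lowest.

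Set beside the background RNAs, the higher and lower genes differed in which RNA stood out. RNA276 was the highest of the 4 RNAs for 250 of the 265 higher genes (94.3%, against 33.8% of all measured genes). It was at least 2-fold above both background RNAs for 145 of the 265, against 197 of all 10887 measured genes. RNA275 was the highest of the 4 for 474 of the 569 lower genes (83.3%, against 27.1% of all). It was at least 2-fold above both background RNAs for 135 of the 569, against 163 of all 10887. RNA276 was the lowest of the 4 for 366 of the 569 lower genes (64.3%, against 25.0% of all). The rule on 2-fold fixes part of these shares, since it already sets RNA276 above or below RNA275. The order of the background RNAs is free of it. The wildtype RNA was above the truncated Egr3 RNA for 375 of the 569 lower genes (65.9%) and for 46.3% of all measured genes. It was at least 2-fold above it for 46 of the 265 higher genes (17.4%) and for 46 of the lower genes (8.08%), against 1.17% of all. The cause of these shares was not tested.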

How the data were processed

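The values used are intensities per probe set that the authors deposited in 1 table for each array type. They are linear and already on a common scale, with the mean after trimming 2% from each end equal on every array. The software behind them is not given in the sources used here. Probe sets were named through the platform annotation, updated through RefSeq tables (GRCm38.p6). On type A, 20380 of 22690 probe sets had 1 symbol, 691 several and 1555 none, and on type B 14661 of 22575 had 1, 245 several and 7605 none; unnamed or ambiguous ones and 64 controls per type were left out. The floor was the 50th percentile (type A) or the 60th (type B) of RNA275 and RNA276 pooled. Type A was preferred for a gene on both types. Each table was compared only within itself.

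Named genes are the Egr and Nab list, the 12 largest and 12 smallest differences held under every scaling and the higher floor, up to 12 bounds of at least 4-fold each way in alphabetical order, and up to 5 called members of each list (the 2 largest where none was called). The members and lists were chosen with earlier results of these data known. The other settings were quantile, equal-median and loess scaling (span 0.3), lower, higher and no floor, and medians over probe sets. Scripts used Python 3.11.15 with numpy 2.4.6, pandas 2.3.3, scipy 1.17.1 and statsmodels 0.14.6, and were tested on simulated data.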

Additional observations from a re-analysis of the deposited data

How the results depend on the processing

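The counts of 265 higher and 569 lower genes stayed within 1.5 times their value under quantile scaling (263 and 512), equal medians (298 and 513), loess (252 and 576), a lower floor (335 and 738), a higher floor (208 and 386), medians over probe sets (247 and 504) and, chosen after seeing the data, without probe sets marked for cross-hybridisation (261 and 553). They moved further with no floor (1098 and 1869), where dim signals enter, with probe sets in place of genes (520 and 1101), and with thresholds of 1.5-fold (1059 and 1423) or 3-fold (73 and 145). Equal medians shifted the median of all type A genes from 0.01 to 0.12. Of 112 named genes past 2-fold, 88 stayed past it in each of 7 settings, 24 did not in at least 1, and 0 changed sign. The count of 88 is partly fixed by the choice of genes. Those named for the largest and smallest differences had to stay past 2-fold under every scaling and the higher floor. These settings are among the 7. Genes named for bounds were taken for large bounds, which also favours staying past 2-fold. No paired analysis was possible because each label has 1 RNA, and no replicate could be left out for the same reason. With 1 RNA a side, the spread between cultures is unknown, and signals near the floor give bounds only.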

Other observations

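Of the 569 genes lower in RNA276, 111 were also at least 2-fold lower there than in both background RNAs. Of all 10887 measured genes, 215 were. RNA276 was thus the lowest RNA for these 111. RNA275 was also below both background RNAs for some of them, such as Neb, Dst, Taok1 and Malat1. Beside Neb, the 111 included Dst, a giant cytolinker of muscle and nerve. It read 58.8 in RNA276 and 141 in RNA275, against 363 in wildtype and 285 in truncated Egr3 myotubes. Taok1, a kinase of microtubule dynamics, read 124 in RNA276 and 285 in RNA275, against 638 in wildtype and 561 in truncated Egr3 myotubes. The nuclear noncoding RNA Malat1 read 91.4 in RNA276 and 183 in RNA275, against 393 in wildtype and 411 in truncated Egr3 myotubes. The deubiquitinases Usp34 (163 against 344) and Usp9x (57.6 against 194), the nuclear pore protein Ranbp2 (87.3 against 301), the cohesin subunit Smc3 (64.4 against 230.0) and the chromatin remodeller Pbrm1 (122 against 378) were also lowest in RNA276, which is given first. So were the matrix genes Vcan, a large proteoglycan (109 against 382), and Cilp (636 against 1504). These genes were chosen after their values were seen. RNA integrity along these long transcripts was not measured, beyond the 3′ to 5′ ratios of actin and Gapdh given above, and its part was not tested.

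Of the 265 higher genes, 145 were at least 2-fold above both background RNAs, against 197 of all 10887 measured genes. Outside the gene lists these included Nmi, a partner of Stat proteins (715 against 145), the lectin Lgals9 (2042 against 478), purine nucleoside phosphorylase Pnp (1319.5 against 317) and the matrix protease Adamts1 (375 against 81.6). For 30 of the 265 the truncated Egr3 RNA was at least 1.5-fold above the wildtype RNA. The share of all measured genes at that line is not given here. At least 2-fold above it were 7 of the 265 (2.64%) and 52 of all 10887 measured genes (0.478%). Rtl3, a retrotransposon-derived gene, read 2513 in RNA276 and 558 in RNA275, against 739 in wildtype and 1314 in truncated Egr3 myotubes. Pik3ip1, an inhibitor of PI3 kinase, read 588 in RNA276 and 176 in RNA275, against 224 in wildtype and 402 in truncated Egr3 myotubes. Cited2, a coactivator partner that limits hypoxia signalling, read 869.5 in RNA276 and 338 in RNA275, against 349 in wildtype and 634 in truncated Egr3 myotubes.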
